A study of Homo sapiens with 24 samples.

Results

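PACS1 and PACS2 are paralogous human genes, and the data describe which parts of their RNAs were recovered with the splicing regulator RBFOX2 in enhanced crosslinking and immunoprecipitation (eCLIP). Their members were all peaks of 7 deposited peak lists that overlapped the span of either gene on hg19 by 1 nt or more and lay on its strand. PACS2 was taken as chromosome 14, 105767200 to 105864500, plus strand (97.3 kb), and PACS1 as chromosome 11, 65837700 to 66012300, plus strand (174.6 kb). This gave 91 peaks, 70 in PACS2 and 21 in PACS1, of 269336 in the 7 lists together. PACS2 had been picked because it holds one of the strongest RBFOX2 signals of the series, made of many regions. PACS1 was picked as the paralog of PACS2. The RBFOX2 values of both genes are therefore a description and carry no test.

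PACS proteins, named for phosphofurin acidic cluster sorting, are cytosolic connectors that bind acidic clusters on membrane cargo and hand them to coat adaptors. PACS1 is known for linking furin and similar cargo to the AP-1 clathrin adaptor for retrieval to the trans-Golgi network. PACS2 is known for COPI-linked retrieval to the endoplasmic reticulum, for contacts between endoplasmic reticulum and mitochondria, and for a part in apoptosis through BID. RBFOX2 binds a GCAUG core, most often within introns, and shifts exon choice depending on which side of the exon it lies.

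The series holds 24 samples of 293T, a human embryonic kidney line that carries the SV40 large T antigen. All were crosslinked on the plate with ultraviolet light, and 7 have a peak list here. In this set 2 libraries were precipitated with an RBFOX2 antibody after 40 U of RNase I. The 4 libraries for SLBP, the protein that binds the stem-loop of histone mRNAs, had 40 U (replicates 1 and 2) or 5 U (replicates 3 and 4). The single control used an isotype IgG after 40 U. Each library was set by the authors against an input of its own, the same size-selected material without precipitation. All libraries come from 1 cell line, the control is 1 library, and nothing in the labels says that replicates were separate cultures, so an SD or p measures only how these libraries differ, and that difference may be technical.

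The lists held 74902 and 97594 peaks for RBFOX2, 23034, 18349, 16974 and 10122 for SLBP and 28361 for IgG. Each peak carries the authors' log2 fold over input and their −log10 p. Peaks with a −log10 p of 5 or more and a log2 fold of 3 or more (8 times the input) are called enriched below. The read depth behind a fold is unknown, so no interval can be given for a single value. The lists also hold no RNA levels. A difference between the genes in number of peaks therefore cannot be told apart from a difference in how much of each RNA the cells hold. No hg19 sequence or exon map was used here, so positions are given by coordinate and not as exon or intron, and whether these stretches hold a GCAUG was not analysed here.

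RBFOX2 recovered PACS2 RNA at 1 place, a stretch of about 2.3 kb near the middle of the gene, and left the rest of the gene almost without peaks. RBFOX2 replicate 1 had 25 peaks in PACS2, of which 24 were enriched, and replicate 2 also had 25 with 24 enriched. Over all peaks of these lists the enriched share was 7.95% and 7.66%. The rule picked the gene on these values, so nothing is read from the gap. In replicate 1 the enriched peaks ran from 105812215 to 105814476 (2.26 kb), and in replicate 2 from 105812225 to 105814456 (2.23 kb). They covered 1020 and 861 nt, 1.05% and 0.885% of the gene. Only 1 further peak per library lay elsewhere in the gene, and the 2 were at different places. Replicate 1 had it at 105840974 to 105841010 with a log2 fold of 0.41, and replicate 2 at 105821739 to 105821756 with 2.99.

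The enriched RBFOX2 peaks of PACS1 lay in a single short stretch in the first part of the gene, with a lower top fold than in PACS2. Replicate 1 had 8 peaks in PACS1 with 2 enriched, and replicate 2 had 7 with 2 enriched. The enriched peaks covered 138 and 182 nt, all between 65879475 and 65879843, 41.8 to 42.1 kb from the start of the span. Per 100 kb of gene, PACS2 held 24.7 enriched peaks and PACS1 held 1.15 in each RBFOX2 library. None of the 15 RBFOX2 peaks of PACS1 lay below input (lowest log2 fold 1.65), while 32.6% and 31.0% of all peaks in the 2 lists did. This was not particular to PACS1, since no RBFOX2 peak of PACS2 and no SLBP or IgG peak of either span lay below input. Of all peaks, 7.02%, 9.45%, 23.4% and 17.0% lay below input in SLBP replicates 1 to 4 and 10.7% in IgG. The SLBP and IgG peaks of the spans are few, so nothing is read from their absence below input.

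**Figure D1:**
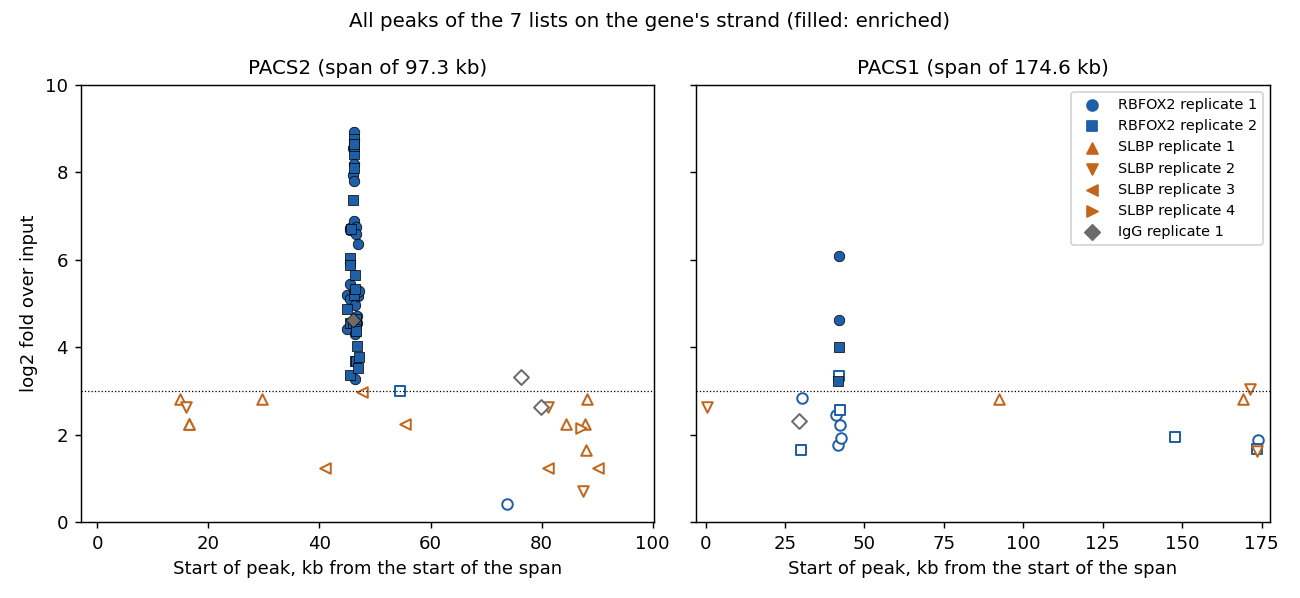
All 91 peaks of the 7 lists in PACS2 (left) and PACS1 (right), by the start of the peak in kb from the start of the span and by the authors' log2 fold over input. Filled symbols are enriched peaks, open symbols are not, and the dotted line is the fold limit of 3. The RBFOX2 column of PACS2 reaches 8.93 and that of PACS1 6.09, and no SLBP symbol is filled.

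The top peaks of the PACS2 stretch were neighbours in the RBFOX2 libraries and shared 1 nt. Replicate 1 had its highest peak at 105813374 to 105813389 with a log2 fold of 8.93, the 16th highest fold of its list. Replicate 2 had its highest peak at 105813355 to 105813374 with 8.76, the 8th highest of its list. The midpoints of the peaks were 17 nt apart. The mean of the top log2 folds was 8.85 ± 0.12 (SD, n = 2).

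The top was not a lone peak but a plateau cut into touching pieces. In replicate 1 the 6 highest peaks of PACS2 followed one another without a gap from 105813274 to 105813500, with log2 folds of 7.94, 8.55, 8.19, 8.74, 8.93 and 7.81 from 5′ to 3′. In replicate 2 the 6 highest ran from 105813282 to 105813491, with 7.37, 8.42, 8.76, 8.61, 8.65 and 8.11. In both plateaus the lowest values stood at the outer ends. The next highest peaks stood clearly lower. In replicate 1 they had log2 folds of 6.88, 6.76, 6.72 and 6.68, and in replicate 2 of 6.71, 6.05, 5.88 and 5.66.

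Around this plateau the enriched PACS2 peaks fell into 5 blocks, taken as enriched peaks of either RBFOX2 library less than 100 nt apart, a division made after the lists were seen. The first, 105812215 to 105812250, held 2 and 1 enriched peaks of replicates 1 and 2 with log2 folds of at most 5.19 and 4.89. The second, 105812657 to 105812899, held 5 in each library with at most 6.72 and 6.71. These 2 values lay at different places, from 105812658 in replicate 1 and from 105812834 in replicate 2, where replicate 1 had no peak. The third, 105813266 to 105813983, carried the plateau and most of the enriched peaks, 14 and 16, over 718 nt. The fourth, 105814102 to 105814255, held 2 and 1 with at most 6.36 and 3.52. The last, 105814391 to 105814476, held 1 in each library with 5.29 and 3.77. The blocks were separated by 406, 366, 118 and 135 nt. With touching peaks joined, the enriched peaks of PACS2 made 11 sites in replicate 1 and 10 in replicate 2, so the count of 24 in each list reflects in part how the authors' caller cut the signal.

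**Figure D2:**
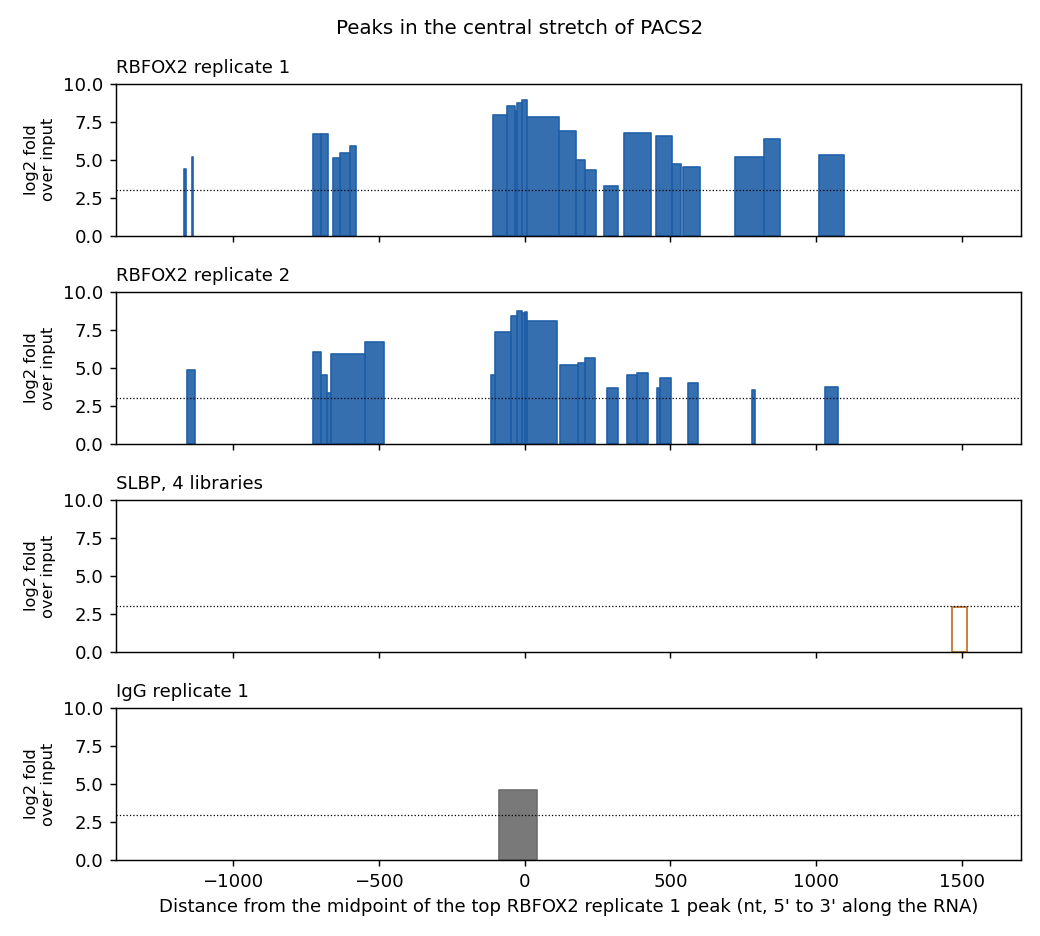
Peaks in the central stretch of PACS2, drawn from 5′ to 3′ by distance in nt from the midpoint of the top RBFOX2 replicate 1 peak. The height of a box is the authors' log2 fold over input and its width the peak's width, filled where enriched, with the fold limit of 3 dotted. Both RBFOX2 libraries show the plateau at 0 with flanking blocks, the IgG library has 1 peak, with 4.63, under the plateau, and the only SLBP peak lies beyond the last block.

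The RBFOX2 replicates placed their PACS2 signal on largely the same nucleotides. Replicate 1 had 21 of its 24 enriched peaks on enriched ones of replicate 2, and replicate 2 had 23 of its 24 on those of replicate 1. Over all enriched peaks the counts were 4089 of 5954 and 4544 of 7480. By nucleotide, 714 nt of PACS2 were enriched in both, 70.0% of the enriched nucleotides of replicate 1 and 82.9% of those of replicate 2, against 62.0% and 53.8% over all enriched peaks. The rule picked PACS2 as a strong locus of many regions. Overlap above that of all enriched peaks may be built into that choice, so nothing is read from it. In PACS1 86 nt were enriched in both, 62.3% of those of replicate 1 and 47.3% of those of replicate 2. Across the 20 enriched replicate 1 peaks of PACS2 whose midpoint lay in an enriched replicate 2 peak, log2 folds had a Pearson's r of 0.80 and a Spearman's rho of 0.73. These peaks are neighbours in 1 stretch of RNA and some share a peak of replicate 2, so the coefficients describe the shape of this stretch.

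PACS2 held 11 regions, that is unbroken stretches of nucleotides enriched in both RBFOX2 libraries, and PACS1 held 1, of 2618 in the genome. The value of a region is the highest enriched peak that touches it in each library. The fourth PACS2 region, 105813274 to 105813491, held the plateau, with 8.93 and 8.76 in replicates 1 and 2, and was the 2nd of the 2618 by its weaker replicate. At its 5′ side, the region at 105812658 to 105812707 had 6.72 and 6.05, the region at 105812726 to 105812805 had 5.94 and 5.88, and the 2 nt at 105812242 to 105812243 had 5.19 and 4.89. These 4 regions differed by at most 0.67 between replicates, about the median gap of all regions (0.67).

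Several regions on the 3′ side of the plateau had wider gaps between replicates, though not all did. Regions leave out peaks found in 1 library alone. On the 5′ side this left out the replicate 2 peak at 105812834 to 105812899, with a log2 fold of 6.71. The region at 105813503 to 105813624 had a log2 fold of 6.88 in replicate 1 and of 5.66 in replicate 2. The region at 105813734 to 105813803 had 6.76 and 4.66, and the region at 105813836 to 105813882 had 6.59 and 4.36. The last of these gaps, 2.22, was the widest in PACS2, and 3.06% of all regions had a gap at least as wide. The region at 105813664 to 105813701 was the weakest, with 3.28 and 3.69, and the only one of the 11 with the higher value in replicate 2. The remaining regions, at 105813942 to 105813974, 105814163 to 105814172 and 105814413 to 105814456, had 4.56, 5.16 and 5.29 in replicate 1 and 4.02, 3.52 and 3.77 in replicate 2. Replicate 1 was thus higher in 10 of 11 PACS2 regions, while over all regions it was higher in 1283 of 2618. The medians of the 11 regions were 5.94 in replicate 1 and 4.66 in replicate 2, beside 4.35 and 4.42 over all regions. The 11 regions share 1 stretch of RNA and are not independent of each other.

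**Figure D3:**
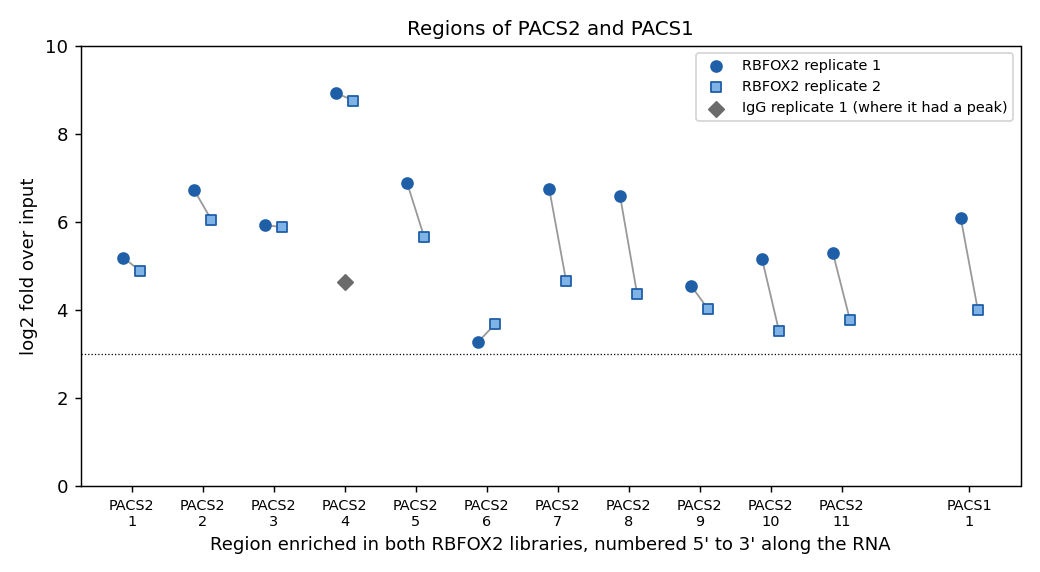
The 11 regions of PACS2 and the 1 region of PACS1 that were enriched in both RBFOX2 libraries, in order along the RNA, with the highest enriched log2 fold over input in replicate 1 (circles) and replicate 2 (squares). The diamond is the IgG peak that overlaps the fourth PACS2 region, at 4.63 against 8.93 and 8.76 for RBFOX2. Regions 7 and 8 of PACS2 and the PACS1 region show the widest gaps between replicates.

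With regions less than 1 kb apart joined, all 11 PACS2 regions made a single locus of 2215 nt, and the PACS1 region stood alone at 86 nt. Of the 1585 RBFOX2 loci of the genome 1142 held a single region, as PACS1 did, and 5 held 11 or more, PACS2 among them. By the fold of the weaker replicate PACS2 ranked 2nd and PACS1 798th of 1585. PACS1 had 4.01 there, beside a median of 4.03 over all loci. The 3 other loci with the nearest number of regions had lower folds than PACS2. The rule picked PACS2 as a strong locus of many regions, so nothing is read from its count, rank or fold here. The locus on chromosome 11 at 858343 to 859752 (minus strand, 11 regions) had 5.98 and 5.58 in replicates 1 and 2. The locus on chromosome 20 at 61914337 to 61916206 (plus strand, 11 regions) had 5.12 and 5.56, and that on chromosome 2 at 130919038 to 130921767 (minus strand, 12 regions) had 7.15 and 7.81. The peaks carry no gene names, so these loci are given by position.

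The top PACS1 peaks of the RBFOX2 libraries covered nearly the same nucleotides, with a wider gap in fold. The highest peak was at 65879753 to 65879843 in replicate 1 with a log2 fold of 6.09, and at 65879753 to 65879838 in replicate 2 with 4.01. Their starts coincide, and their midpoints were 2.5 nt apart. The mean was 5.05 ± 1.47 (SD, n = 2), and 4.20% of all regions had a gap between replicates at least as wide as the 2.08 here. The peak stood 616th by fold in the list of replicate 1 and 4498th in that of replicate 2.

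The second enriched PACS1 peak was not the same in the replicates. In replicate 1 it was the piece touching the top peak at its 5′ side, 65879706 to 65879752, with a log2 fold of 4.62 and a −log10 p of 7.67. Replicate 2 had a peak there as well, at 65879705 to 65879748, whose fold of 3.36 passed its limit and whose −log10 p of 2.74 did not. In replicate 2 the second enriched peak was at 65879475 to 65879570, with 3.24 and a −log10 p of 5.05, just inside both limits. Replicate 1 had 1.76 there, at 65879510 to 65879562, with a −log10 p of 2.05. Both libraries thus had a peak at each of these places, and the limits divided them differently. On the fold limit alone 2 and 3 PACS1 peaks of replicates 1 and 2 passed, as did 12.0% and 11.6% of all peaks of these lists. With a −log10 p of at least 10 and a log2 fold of at least 4, 1 and 0 PACS1 peaks of replicates 1 and 2 passed, as did 3.73% and 3.23% of all peaks, and no PACS1 region was enriched in both.

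The RBFOX2 peaks of PACS1 outside this stretch were weak, and some lay at the same place in both libraries. Replicate 1 shared nucleotides with a replicate 2 peak at 3 of 5 of them, and replicate 2 with a replicate 1 peak at 3 of 4. Over all peaks of the lists the counts were 45408 of 74902 (60.6%) and 46796 of 97594 (47.9%), and 5 and 4 peaks are too few to set PACS1 apart from these shares. A peak 3′ of the site, from 65879893, had 2.22 in replicate 1 and 2.56 in replicate 2 on the log2 scale. A peak 30.2 kb from the start of the span, from 65867880 in replicate 1 and 65867874 in replicate 2, had 2.84 and 1.65. A peak in the last 1 kb of the span, from 66011448 and 66011431, had 1.87 and 1.67. In the GRCh38.p14 gene table KLC2 overlaps PACS1 by 807 nt at that end, so which gene this last peak belongs to was not settled. The peaks without a counterpart were at 65878850 and 65880159 in replicate 1, with 2.46 and 1.94, and at 65985421 in replicate 2, with 1.95.

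**Figure D4:**
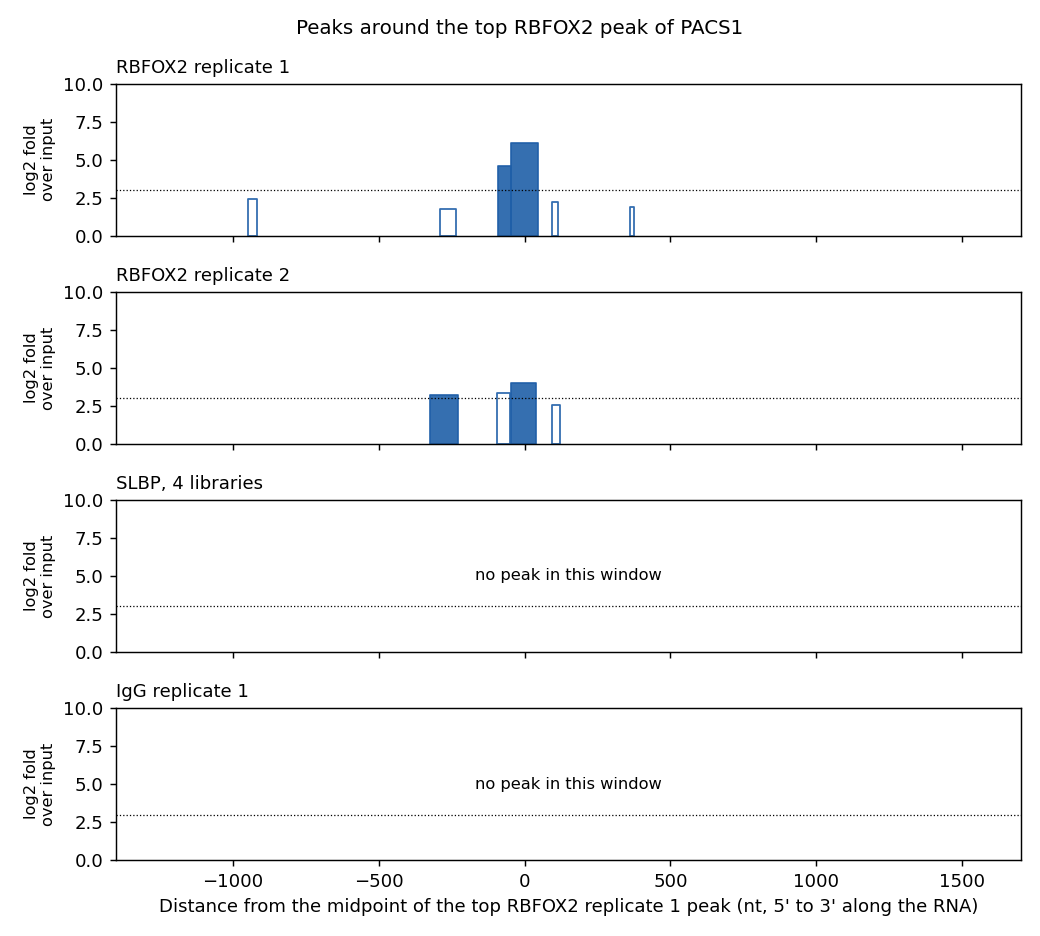
Peaks around the top RBFOX2 peak of PACS1, on the same scales as the plot of the PACS2 stretch, by distance in nt from the midpoint of the top replicate 1 peak. The top peak has a log2 fold of 6.09 in replicate 1 and 4.01 in replicate 2, the neighbours are mostly open (not enriched), and the SLBP and IgG lists have no peak in this window.

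Set side by side, the paralogs differed in number, place and fold of their RBFOX2 peaks. The highest log2 fold was 8.93 in PACS2 and 6.09 in PACS1 in replicate 1, a difference of 2.84 or 7.16-fold. In replicate 2 it was 8.76 in PACS2 and 4.01 in PACS1, a difference of 4.75 or 26.8-fold. PACS2 was picked for its strong RBFOX2 signal and PACS1 as its paralog, so nothing is read from the shared direction. The size of the difference varied between the libraries by more than the 0.17 by which the PACS2 values differed. The PACS2 site lay 46.2 kb into its gene (47.5% of the span) in replicate 1 and the PACS1 site 42.1 kb into its gene (24.1%). Enriched peaks of PACS2 were narrower, with medians of 33.5 and 30.5 nt in replicates 1 and 2, than those of PACS1, with 69 and 91 nt over 2 peaks each. Over all enriched RBFOX2 peaks the medians were 55 and 51 nt. These widths depend on how the authors' caller cut the signal. With touching peaks joined, PACS2 had 11 and 10 sites over 1020 and 861 nt in replicates 1 and 2. PACS1 then had 1 and 2 sites over 138 and 182 nt.

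SLBP libraries had scattered, weak peaks in both genes and none at either RBFOX2 site. The 4 lists held 22 peaks in the 2 spans, 17 in PACS2 and 5 in PACS1, with log2 folds of 0.72 to 3.04 (median 2.24) and −log10 p of at most 1.75. None of the 22 was enriched. Counted as 3 of 22, the limit that a count of 0 sets is 13.6%. This limit is rough, since the 22 peaks are pooled over 4 libraries and are not all independent of each other. Over all SLBP peaks the enriched share was 1.23%, 1.27%, 1.70% and 2.33% in replicates 1 to 4, so a count of 0 among 22 is near these shares.

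The highest SLBP folds stayed near or under the fold limit of 3 in every library. In PACS2, SLBP replicate 1 had its 3 highest peaks at 105782148, 105796853 and 105855348, each with 2.83, and replicate 2 had 2.63, 2.63 and 0.72. Replicate 3 had 2.98, 2.24 and 1.24 as its highest values, and the single peak of replicate 4, at 105854330, had 2.17. In PACS1, replicate 1 had 2 peaks of 2.83 and replicate 2 had 3.04, 2.63 and 1.63, while replicates 3 and 4 had none. Such repeated values run through the lists. The pair of a log2 fold of 2.83 and a −log10 p of 1.09, held by 5 of the SLBP replicate 1 peaks here, occurred at 2655 peaks (11.5%) of that list. The SLBP peak nearest to the PACS2 stretch, at 105814847 in replicate 3 with 2.98, began 371 nt beyond its 3′ end. The nearest to the enriched PACS1 peaks was 41.2 kb away.

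The number of SLBP peaks in the 2 genes was 10 and 6 in replicates 1 and 2 (40 U of RNase I) and 5 and 1 in replicates 3 and 4 (5 U). The libraries with 40 U averaged 8 ± 2.83 and those with 5 U 3 ± 2.83 (SD, n = 2 each), a difference of 5 (exact permutation p = 0.333, two-sided), the smallest p that 2 against 2 libraries allow. The lists with 5 U were also the shorter ones. Per 10000 peaks of the list the values were 4.34 and 3.27 at 40 U and 2.95 and 0.99 at 5 U. Without SLBP replicate 1, or without replicate 4, the difference was 3. The amounts were used on different replicate numbers, so an effect of RNase I and one of replicate cannot be told apart.

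The IgG control had an enriched peak at the PACS2 site and none at the PACS1 site. Its PACS2 peak lay at 105813294 to 105813423, a width of 130 nt within the plateau, with a log2 fold of 4.63 and a −log10 p of 12.9, the 16th highest fold of the list. All 6 plateau peaks of each RBFOX2 library overlapped it. The highest of these exceeded it by 4.30 in replicate 1 and 4.13 in replicate 2, or 19.7-fold and 17.5-fold, between lists whose scalings are not known to match. In the IgG list 0.180% of all peaks were enriched. An enriched IgG peak lay in 20 of the 1585 RBFOX2 loci (1.26%), PACS2 among them. Most of the 1585 held a single region, unlike PACS2. An IgG peak of any strength lay in 298 of the 1585 loci (18.8%). The loci of 11 or 12 regions described above, on chromosomes 11, 20 and 2, held 3, 5 and 7 IgG peaks. Of these 0, 0 and 2 were enriched. None of the other blocks of the PACS2 stretch held an IgG peak.

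The remaining IgG peaks lay away from the enriched RBFOX2 peaks. In PACS2 they were at 105843516 to 105843527 with a log2 fold of 3.31 and at 105847081 to 105847099 with 2.63, with −log10 p of 1.58 and 1.62. The first of these passed the fold limit alone, as 4.12% of all IgG peaks did, so 2 IgG peaks of PACS2 would count without the limit on p. In PACS1 the only IgG peak was at 65867039 to 65867043, with 2.31, and lay 12.4 kb from the enriched RBFOX2 peaks. The RBFOX2 peaks from 65867880 in replicate 1 and 65867874 in replicate 2, neither enriched, lay closer to it. With 1 IgG library none of these IgG values has a replicate check.

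Some PACS peaks lay near the limits on p and fold. With the stricter limits given above, 23 and 17 of the 24 enriched PACS2 peaks of replicates 1 and 2 passed, and PACS2 regions numbered 6 in place of 11. In PACS2 the weakest enriched peaks had log2 folds of 3.28 in replicate 1 (105813655 to 105813701, −log10 p 8.85) and 3.38 in replicate 2 (105812706 to 105812717, −log10 p 8.53). Just outside was the replicate 2 peak at 105821739, with 2.99 and a −log10 p of 5.89. In PACS1 the replicate 2 peak at 65879475 was just inside, with 3.24 and a −log10 p of 5.05. The deposited −log10 p gives no order among most of the enriched PACS2 peaks. The same value of 15.66 stood at 21 of the 24 in replicate 1 and 13 of the 24 in replicate 2. That value also stood at 28.3% and 25.2% of all enriched peaks of the 2 lists. It was not the highest of these lists, which held 102 and 100 peaks at 400. No PACS2 peak passed 15.66.

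On the opposite strand the spans were almost free of peaks. The RBFOX2 lists had 0 there in both genes, as did the IgG list. The 4 SLBP lists together had 1, in replicate 2 at the 5′ end of PACS2 (105767259 to 105767302), with a log2 fold of 3.04 and a −log10 p of 1.38, which is not enriched. In the GRCh38.p14 gene table BRF1 overlaps PACS2 by 14816 nt at that end.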

How the data were processed

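Peak lists of 7 eCLIP libraries were used: 2 RBFOX2, 4 SLBP and 1 IgG. The 7 inputs entered through the authors' folds, and 10 samples of an RNase I series were not analysed here. Per the submitters' processing notes the build was hg19, with cutadapt, STAR, GATK, Picard and SAMtools. For the peak caller no name is given in the sources used here, and the lists have no header. The deposited −log10 p and the deposited log2 fold over the paired input, both the authors' own, were recognised from their values and the naming of the lists. Starts were changed to count from 1.

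Peaks were selected by span and called enriched at −log10 p of at least 5 and log2 fold of at least 3. Regions are stretches enriched in both RBFOX2 libraries, joined into loci within 1 kb. SLBP peak numbers were compared with an exact permutation test. Interval steps were tested on simulated data (Python 3.11.15, pandas 2.3.3).

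Named were the 10 highest enriched RBFOX2 peaks per list and span, all reproducible regions, the 5 highest IgG and 3 highest SLBP peaks per span, and the 3 loci nearest to PACS2 in number of regions. Others were chosen after their values were seen. Members, limits and lists were chosen with earlier results of these data known. A list of sorting adaptors and cargo was not analysed here, since it needs an hg19 annotation. Gene overlaps come from RefSeq GRCh38.p14, whose coordinates were not used. Further genes overlap the spans, among them a pseudogene sharing 10420 nt with PACS2 and a long noncoding RNA sharing 5912 nt with PACS1. Whether these lie under any of the peaks was not analysed here.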

Additional observations from a re-analysis of the deposited data

How the results depend on the processing

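Enriched RBFOX2 peaks averaged 24 in PACS2 and 2 in PACS1, and stayed at 24 and 2 without replicate 1 and without replicate 2. In PACS2 the average was 10.5 with touching peaks merged. With a −log10 p of at least 10 and a log2 fold of at least 4, regions enriched in both libraries numbered 6 in PACS2 and 0 in PACS1, and enriched PACS1 peaks averaged 0.5. On the fold limit alone PACS1 had 2 such regions and PACS2 2 enriched IgG peaks. The other alternatives, namely a looser p, a looser fold, a minimum stretch of 20 nt and peaks wholly inside the span, moved none of these counts by more than 1.5 times. The SLBP difference between 40 U and 5 U was 3 to 7 peaks with each library left out in turn, 4.5 with touching peaks merged and 1.84 per 10000 peaks of the list, and kept its direction throughout. The p was 0.333 or 0.667, in a design too small to pass 0.05. No paired analysis was possible because the SLBP libraries at 40 U and at 5 U share no replicate number and the RBFOX2 values were not tested. Depth is unknown, so weak peaks and absent peaks cannot be told apart.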

Other observations

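The order of the PACS2 peaks differed between the RBFOX2 libraries outside the plateau. In replicate 2 the highest peak after the plateau lay on its 5′ side, at 105812834 to 105812899 with a log2 fold of 6.71, where replicate 1 had no peak. In replicate 1 the highest such peaks lay on its 3′ side, at 105813501 to 105813557 with 6.88 and at 105813724 to 105813814 with 6.76. No test bears on this, and each value comes from 1 library.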
